A study of Mus musculus with 2 samples.

Results

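The mitochondrially encoded transcripts were examined in the interscapular brown fat (iBAT) of young mice. The members were taken by Entrez identifier from the genes of the mouse mitochondrial genome, which are 13 protein genes, 2 ribosomal RNA (rRNA) genes and 22 transfer RNA (tRNA) genes. The deposited count tables list 15 of these 37 genes among 27179 genes in all. The 15 are the 13 protein genes and the rRNA genes mt-Rnr1 and mt-Rnr2, and none of the 22 tRNA genes has a row. No tRNA is therefore described below. Tissue came from C57BL/6N mice aged 20 days, described as male and untreated. One library was made from wild-type animals and 1 from Ucp1-knockout (Ucp1-KO) animals, each from the pooled tissue of 3 animals, and RNA was enriched for poly(A) tails before directional library preparation. The study compared the genotypes to follow what loss of uncoupling protein 1 (UCP1), which lets brown fat mitochondria release energy as heat, does to transcript abundance in young tissue.

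The mitochondrial genome is a small circle that is transcribed from both of its strands into long precursors. The tRNAs lie between most of the other genes and are cut out, which frees the mRNAs and rRNAs. The protein genes encode core subunits of complexes I, III and IV of the respiratory chain and of ATP synthase (complex V), and each of these complexes also needs subunits made from nuclear genes. Brown adipocytes are packed with mitochondria, and their respiratory chain builds the proton gradient that UCP1 dissipates. Mitochondrial genes have no introns. Most mitochondrial mRNAs carry a short poly(A) tail, the rRNAs carry at most a few adenines, and the ND6 mRNA lacks a tail.

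The libraries held 52950913 counts (wild-type) and 53216727 counts (Ucp1-KO). Neither genotype was replicated, so no test was made, and each interval is a 95% interval that covers counting error only. The targeted gene Ucp1 gave 366473 wild-type and 37853 Ucp1-KO counts, which is -2.98 (-3.00 to -2.95) as a log2 ratio of normalised counts. The Y-linked markers Ddx3y, Uty, Kdm5d and Eif2s3y were listed at 0 in wild-type, and in Ucp1-KO they had 3446, 798, 570 and 491 counts. The wild-type library therefore did not match the label of male animals, and Xist, the RNA of the inactive X chromosome, had 32380 counts there and 16478 in Ucp1-KO. The Ucp1-KO library thus held both Y-linked and Xist counts, and it did not match a pool of males alone either. Genotype and these sex-linked transcripts cannot be told apart. The 23 skeletal muscle markers were all at least 2-fold lower in Ucp1-KO, and their summed share was 0.729% in wild-type against 0.0931% in Ucp1-KO. The 9 endothelial markers had a median log2 ratio of -0.86, the 8 macrophage markers of 0.19, the 8 adipocyte markers of 0.41 and the 10 brown adipocyte markers, which include Ucp1, of 0.39, and none of these markers was at 0 in either library. Of the brown adipocyte markers, Elovl3 (2.52), Dio2 (2.28), Ppargc1a (1.89) and Prdm16 (1.39), named after their values were seen, were at least 2-fold higher in Ucp1-KO, and Ucp1 was the 1 at least 2-fold lower. The part of these markers in the results below was not tested. In bulk tissue, the number of mitochondria-rich cells, the number of mitochondrial genomes in a cell and the amount of RNA from each genome cannot be told apart.

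Before the values, the places where the sequence itself limits the counts are shown, because several members overlap or have near-identical copies elsewhere. Positions and sequences are those of the mitochondrial chromosome (chrM, 16299 bases) of the mouse genome build GRCm39, which comes from C57BL/6J, and are written on the plus strand. A read that lies across an overlap fits both genes. In the following stretches the bases annotated to both genes are in capitals. ATP8 and ATP6 share 43 bases, from the start codon of ATP6 to the stop codon of ATP8 (chrM:7907-7989), and ND4L and ND4 share 7 bases (chrM:10147-10193). ND5 and ND6 meet tail to tail on opposite strands over 14 bases (chrM:13532-13585).
ATP8/ATP6: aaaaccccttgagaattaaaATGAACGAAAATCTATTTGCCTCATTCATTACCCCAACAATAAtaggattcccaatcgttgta
ND4L/ND4: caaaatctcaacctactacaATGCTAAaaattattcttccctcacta
ND5/ND6: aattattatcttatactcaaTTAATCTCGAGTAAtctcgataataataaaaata

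The nuclear genome also holds copies of mitochondrial sequence. The longest match lay on chromosome 1 from 24650616 to 24655269 on the minus strand and covered positions 6390 to 11042 of the mitochondrial chromosome at 99.94% identity. It differed by 2 substitutions and 1 gap, namely A6393T in COX1, T9461C in ND3 and 1 additional base of the nuclear copy within the tRNA gene mt-Tr. In these tokens the mitochondrial base comes first, then its position counted from 1 at the start of chrM, then the base of the nuclear copy. COX2, ATP8, ATP6, COX3, ND3 and ND4L lie wholly within this stretch, and of COX1 31.3% and of ND4 63.6% of the bases do. T9461C, the third base of ND3, was the 1 substitution inside any of these 6 genes in the C57BL/6J reference. The mitochondrial DNA of the C57BL/6N animals was not examined, so their base at this position is not known here. Its surroundings are shown with the differing base in capitals, for the mitochondrial chromosome (chrM:9431-9491) and for the nuclear copy (chr1:24652168-24652228, minus strand).
ND3 mitochondrial: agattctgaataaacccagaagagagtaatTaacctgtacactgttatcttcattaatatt
ND3 nuclear: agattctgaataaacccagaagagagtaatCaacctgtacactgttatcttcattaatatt

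As a measure of this likeness, each gene was cut into overlapping windows of 100 bases. All windows of COX2, ATP8, ATP6, COX3 and ND4L occurred unchanged in the nuclear genome, as did 246 of the 249 windows of ND3. The share was 60.8% for ND4, 30.8% for COX1, 3.19% for ND2 and 1.21% for mt-Rnr2, and it was 0 for mt-Rnr1, ND1, ND5, ND6 and CYTB. How reads that match several places were counted is not given in the sources used here. The values of the 6 genes inside the chromosome 1 copy are therefore uncertain, and they are given apart where that matters.

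Mitochondrially encoded transcripts made up a larger part of the Ucp1-KO library. The 15 genes together took 22.4% of the wild-type library (22.37% to 22.40%, exact binomial) and 36.7% of the Ucp1-KO library (36.67% to 36.71%). The 13 protein genes accounted for 21.4% and 30.7%. The 2 rRNAs accounted for 1.01% and 6.01%, so that their sum relative to the summed mRNA counts went from 0.0472 to 0.196, a 4.15-fold difference that does not depend on scaling between libraries. Of the 10 genes with the highest counts, 7 were mitochondrially encoded in wild-type and 9 in Ucp1-KO.

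**Figure D1:**
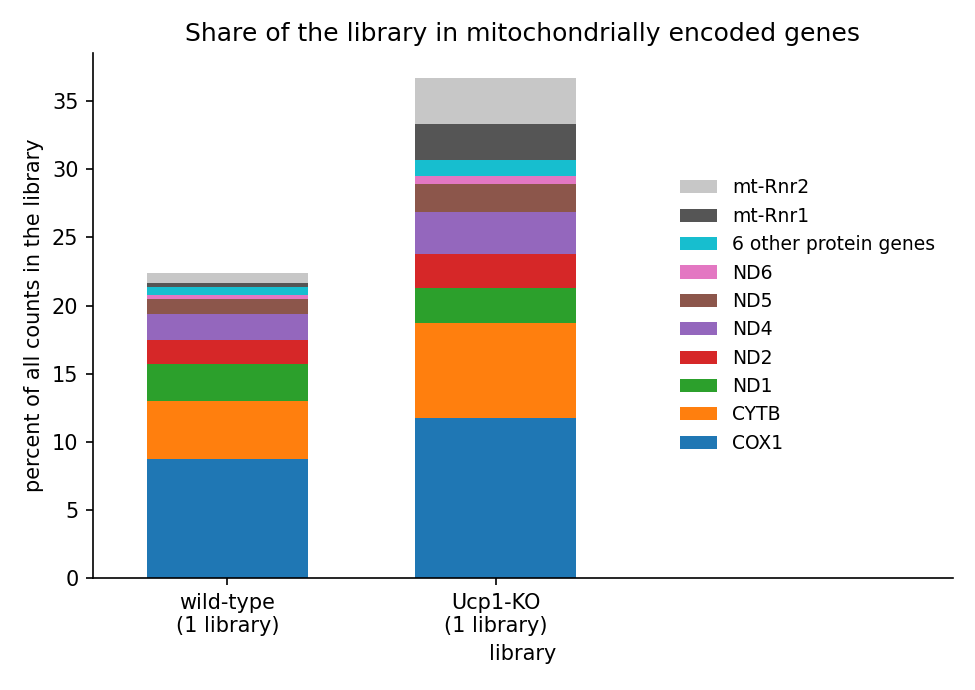
Stacked bars give the percent of all counts in each library (y axis) that fell on mitochondrially encoded genes, with 1 bar for each of the 2 libraries and 1 colour for each gene (the 6 protein genes inside the chromosome 1 copy are summed). The bars reach 22.4% in wild-type and 36.7% in Ucp1-KO, and the rRNA segments at the top go from 1.01% to 6.01%.

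For the difference between genotypes, DESeq2 size factors were applied, and the normalised count in Ucp1-KO over that in wild-type is given on the log2 scale as the log2 ratio. All 15 members had a log2 ratio above 0 with intervals that did not reach 0, although ND1 went to -0.06 when libraries were scaled by total counts, which shifts every gene by -0.31. The values ran from 0.25 for ND1 to 3.46 for ND3. Their median was 0.99, against -0.0016 over the 15212 genes examined, those whose normalised counts averaged 10 or more. Of these 15212 genes, 7592 had a log2 ratio above 0 and 4791 had an interval wholly above 0. Most members had very high counts, which makes their counting intervals narrow. A difference of at least 2-fold was found for 6 of the 15 members, namely ND3, mt-Rnr1, mt-Rnr2, ATP6, ND6 and ND5, and for 4 with total counts, which left out ND5 and ND6. All 6 were higher in Ucp1-KO, and 7.42% of all genes examined were at least 2-fold higher. None of the 15 was at least 2-fold lower, against 9.55% of all genes examined. Among the genes past 2-fold, 43.7% were higher with this scaling and 25.3% with total counts. CYTB and COX2 lay just below 2-fold, with log2 ratios of 1.00 and 0.99.

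**Figure D2:**
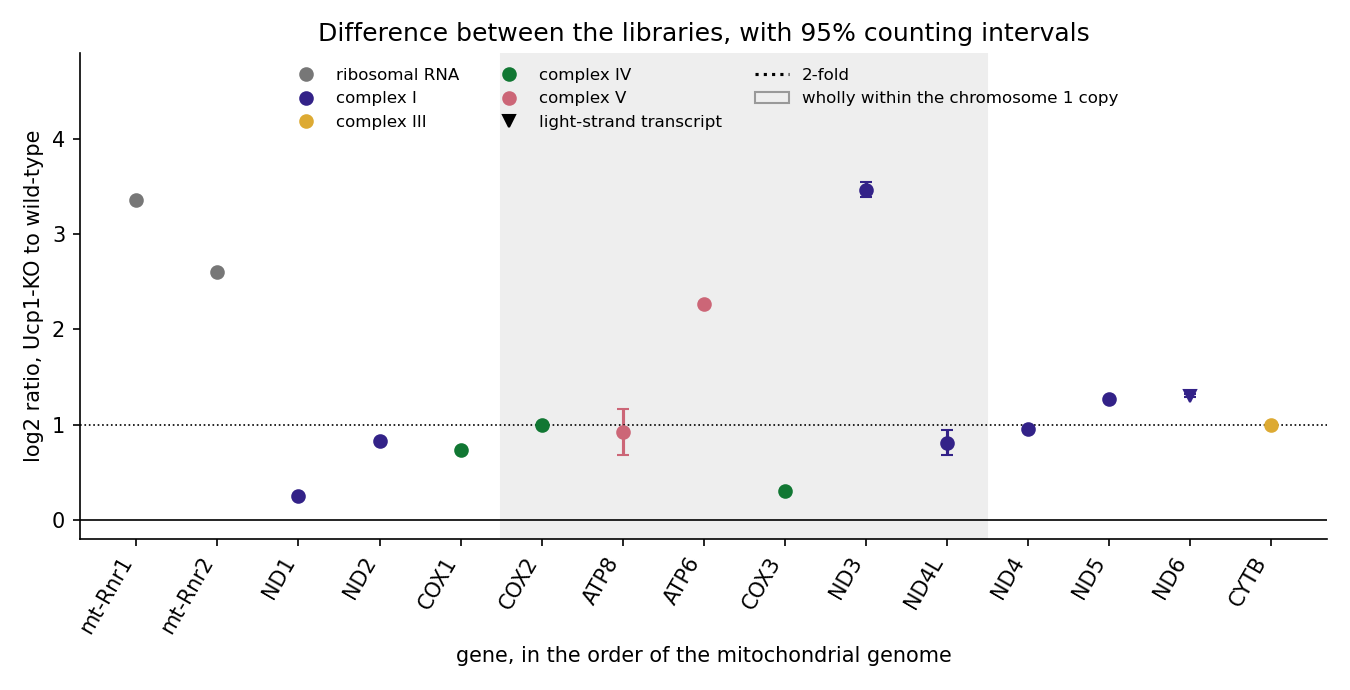
Points give the log2 ratio of Ucp1-KO to wild-type (y axis) for each gene in genome order (x axis), 1 library per genotype, with bars for the 95% counting interval and colours for complexes. All points lie above 0 (ND1 falls to -0.06 with total-count scaling), from 0.25 for ND1 to 3.46 for ND3, and the rRNAs stand at 3.35 and 2.60.

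Complex I, the NADH dehydrogenase through which most electrons enter the chain, takes 7 of its core membrane subunits from mitochondrial DNA, and these differed unequally. ND1 (positions 2751 to 3707) gave 1417547 wild-type and 1367955 Ucp1-KO counts, nearly the same number. Its log2 ratio of 0.25 (0.24 to 0.25) was the lowest of all members. ND2 (3914 to 4951) gave 937604 and 1348341 counts and a log2 ratio of 0.82 (0.82 to 0.83). ND4 (10167 to 11544) gave 1021658 and 1613162 counts and a log2 ratio of 0.96 (0.95 to 0.96). ND2 and ND4 thus stood above ND1 and below 2-fold. ND5 (11742 to 13565), the largest of the subunits, gave 553047 and 1086130 counts and a log2 ratio of 1.27 (1.27 to 1.28). ND6 (13552 to 14070), which is read from the opposite strand to all other members, gave 169843 and 340934 counts and a log2 ratio of 1.30 (1.29 to 1.32). ND5 and ND6, which have no base in the chromosome 1 copy, passed 2-fold, but with total counts their log2 ratios were 0.97 and 0.998.

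Small complex I genes within the copy gave few counts and less precise values. ND4L (9877 to 10173), which lies upstream of ND4 on the same mRNA, gave 1578 and 2247 counts and a log2 ratio of 0.81 (0.68 to 0.94). ND3 (9459 to 9806) had 2978 and 26702 counts, and its log2 ratio of 3.46 (3.39 to 3.54) was the highest of the 15. Its neighbour upstream, COX3, differed by 0.31 only, so that ND3 per COX3, each per base of its length, went from 0.0529 to 0.472. The windows of both genes occur almost entirely in the nuclear genome (98.8% for ND3 and 100% for COX3), and the part of the copy in this difference was not tested.

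Complex III receives 1 mitochondrially encoded subunit, cytochrome b. CYTB (14145 to 15288) gave 2268380 wild-type and 3682757 Ucp1-KO counts, and its log2 ratio was 1.00 with an interval from 1.00 to 1.00 at 2 decimals. It had the second highest count of all genes in either library. Complex IV, cytochrome c oxidase, hands electrons to oxygen and takes its catalytic subunits from COX1, COX2 and COX3. COX1 (5328 to 6872) had the highest count of all genes in both libraries, with 4632330 and 6272774 counts and a log2 ratio of 0.74 (0.73 to 0.74). COX2 (7013 to 7696) gave 115589 and 186754 counts and a log2 ratio of 0.99 (0.98 to 1.01). COX3 (8607 to 9390) gave 126821 and 127585 counts and a log2 ratio of 0.31 (0.29 to 0.32), and with total counts its log2 ratio was 0.0014. None of the 3 complex IV genes was at least 2-fold different.

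Complex V contains ATP6, which forms the proton path next to the rotor, and ATP8, a small subunit beside it. Both are translated from 1 mRNA. ATP6 (7927 to 8607) gave 69697 wild-type and 272272 Ucp1-KO counts, and its log2 ratio was 2.27 (2.25 to 2.28). ATP8 (7766 to 7969) had 477 and 735 counts, the fewest of all members, and a log2 ratio of 0.92 (0.68 to 1.16). The ratio of ATP8 to ATP6 per base went from 0.0229 to 0.00901. Of the 204 bases of ATP8, 43 also belong to ATP6, shown as capitals in the stretch above, and the part of this overlap in the values was not tested. By complex, the median log2 ratio was 0.96 for the 7 genes of complex I, 1.00 for the 1 gene of complex III, 0.74 for the 3 of complex IV and 1.59 for the 2 of complex V. The spread within complexes I and V was wider than the differences between these medians.

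The rRNAs form the core of the mitochondrial ribosome, which translates the 13 mRNAs. mt-Rnr1 (70 to 1024), the RNA of the small subunit, gave 167053 wild-type and 1386284 Ucp1-KO counts, and its log2 ratio was 3.35 (3.34 to 3.36). mt-Rnr2 (1094 to 2675), the RNA of the large subunit, gave 366556 and 1809408 counts and a log2 ratio of 2.60 (2.60 to 2.61). Both stood above each protein gene other than ND3. Per base, mt-Rnr1 was at 0.755 of mt-Rnr2 in wild-type and at 1.27 in Ucp1-KO, so that their order reversed. ND1, which directly follows mt-Rnr2 on the same precursor apart from a tRNA, had the lowest log2 ratio of all, next to the high values of the rRNAs.

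Because rRNAs are poorly captured by poly(A) enrichment, other RNAs made without a tail were set beside them. Of 67 replication-dependent histone genes, 20 could be examined. Their median log2 ratio was -1.02, and 10 were lower and 0 higher by 2-fold or more. H1f4 (-3.93), H3c15 (-2.83) and H1f3 (-2.28) were furthest from 0. Of 138 small and structural RNAs, 65 could be examined, with a median of 0.83, and 29 were higher and 3 lower by 2-fold or more. Snora23 (1 and 21 counts, log2 ratio 4.09, 1.17 to 14.78), Snord88c (1 and 19 counts, 3.94, 0.998 to 14.65) and Snord47 (3 and 33 counts, 3.53, 1.45 to 7.66) were furthest from 0. The filter averages both libraries, so a gene can pass it through Ucp1-KO alone, as these 3 did. Others also did, such as Snord69 (7 and 39 counts) and Snord58b (4 and 23 counts). The number of higher genes and the median are therefore uncertain. Many small nucleolar RNAs lie in introns of other genes. The nuclear rRNA entries Rn45s and Rn18s, chosen after their values were seen, had log2 ratios of -0.34 and -0.40. Among the members, the ND6 mRNA also lacks a tail, and its log2 ratio was 1.30. The strand setting of the counts is not given in the sources used here, so the ND6 counts may include reads of the antisense strand. The nuclear RNAs made without a tail thus did not share 1 direction, although the values of the small and structural RNAs were uncertain. ND6 and both mitochondrial rRNAs were higher in Ucp1-KO. The part of the enrichment step in the rRNA and ND6 differences was not tested.

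Levels between genes were compared as counts per kilobase of gene length, scaled to the library total (RPKM). In wild-type the order began with COX1 (56624 RPKM), CYTB (37447) and ND1 (27974), followed by ND2 (17059) and ND4 (14002). ND6 (6180 RPKM) and ND5 (5726) came next, ahead of mt-Rnr2 (4376) and mt-Rnr1 (3304). In Ucp1-KO, COX1 (76293 RPKM) and CYTB (60492) led as well, but mt-Rnr1 (27277) took the third place ahead of ND1 (26860). The lowest levels were those of ATP8 (44.2 and 67.7 RPKM), ND4L (100.3 and 142) and ND3 (162 and 1442). From the lowest to the highest protein gene the level differed 1282-fold in wild-type and 1127-fold in Ucp1-KO.

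**Figure D3:**
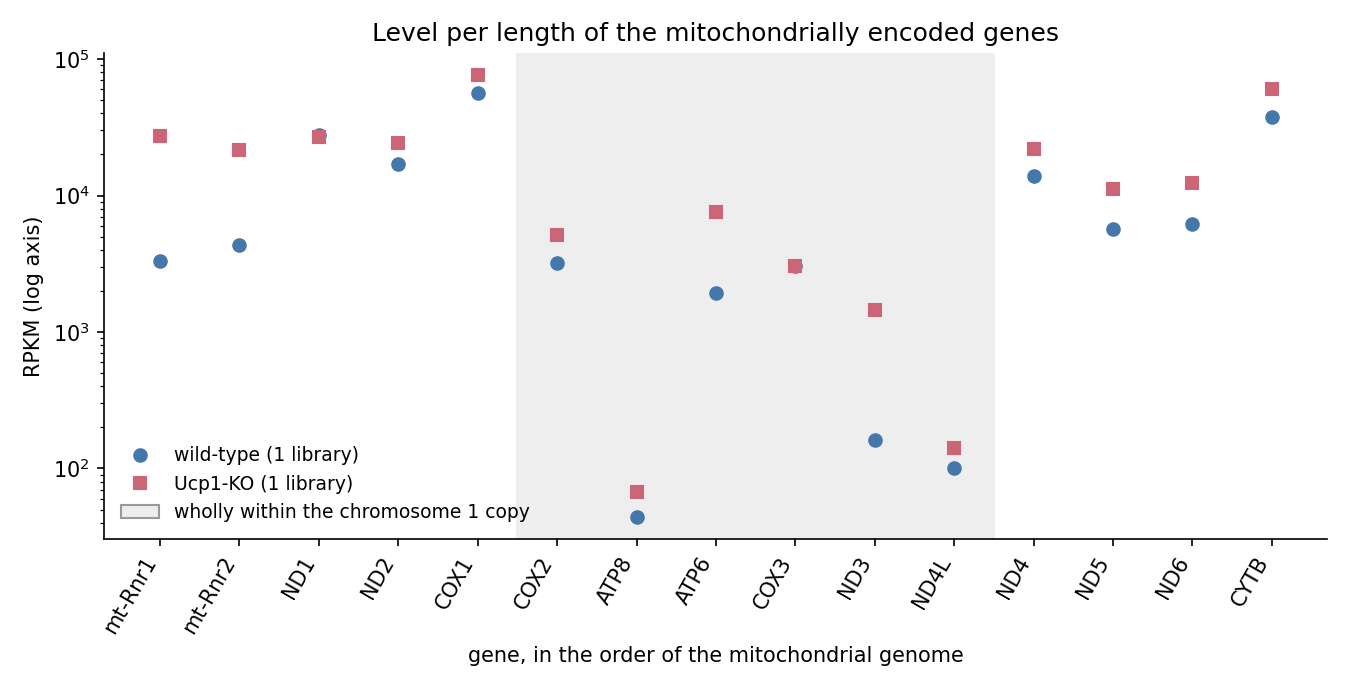
Points give the level of each gene in RPKM (y axis, log scale) in the wild-type and the Ucp1-KO library, 1 library each, with genes in the order of the mitochondrial genome (x axis). The 6 genes in the grey field lie between 44.2 and 3191 RPKM in wild-type, below the 5726 to 56624 RPKM of the other 7 protein genes.

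The genes wholly inside the chromosome 1 copy stood apart in level from the others, which include the partly covered COX1 and ND4. The 6 protein genes wholly inside the chromosome 1 copy lay between 44.2 and 3191 RPKM in wild-type and between 67.7 and 7513 in Ucp1-KO. The 7 other protein genes lay between 5726 and 56624 RPKM and between 11189 and 76293. The 2 ranges did not overlap in either library. The 12 heavy-strand genes of both sets are cut from shared precursors. The shortest protein genes, ATP8 (204 bases), ND4L (297) and ND3 (348), lie in the copy and had the lowest levels. For these shortest genes the copy and gene length cannot be told apart, and ATP8 and ND4L also overlap a neighbour. COX2 (684 bases) and COX3 (784 bases), also inside the copy, were at 3191 and 3055 RPKM in wild-type and at 5131 and 3058 in Ucp1-KO. ND6, shorter at 519 bases and outside the copy, was at 6180 and 12344 RPKM. The part of the copy, gene length and overlaps in the levels was not tested. COX2 stood at 0.0564 of COX1 per base in wild-type and at 0.0673 in Ucp1-KO, and ND4L at 0.00717 and 0.00646 of ND4. Across the 13 protein genes, the level went down as the share of windows found in the nuclear genome went up (Spearman's rho of -0.74 in either library, across genes of 1 library that share depth and precursors). The log2 ratio showed little of such a relation (rho of -0.07). The median log2 ratio was 0.96 for the 6 genes wholly inside the copy and 0.96 for the 7 others, but the range was 0.31 to 3.46 for the 6 and 0.25 to 1.30 for the 7. The most divergent protein genes, ND3 and ATP6, were both inside the copy.

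**Figure D4:**
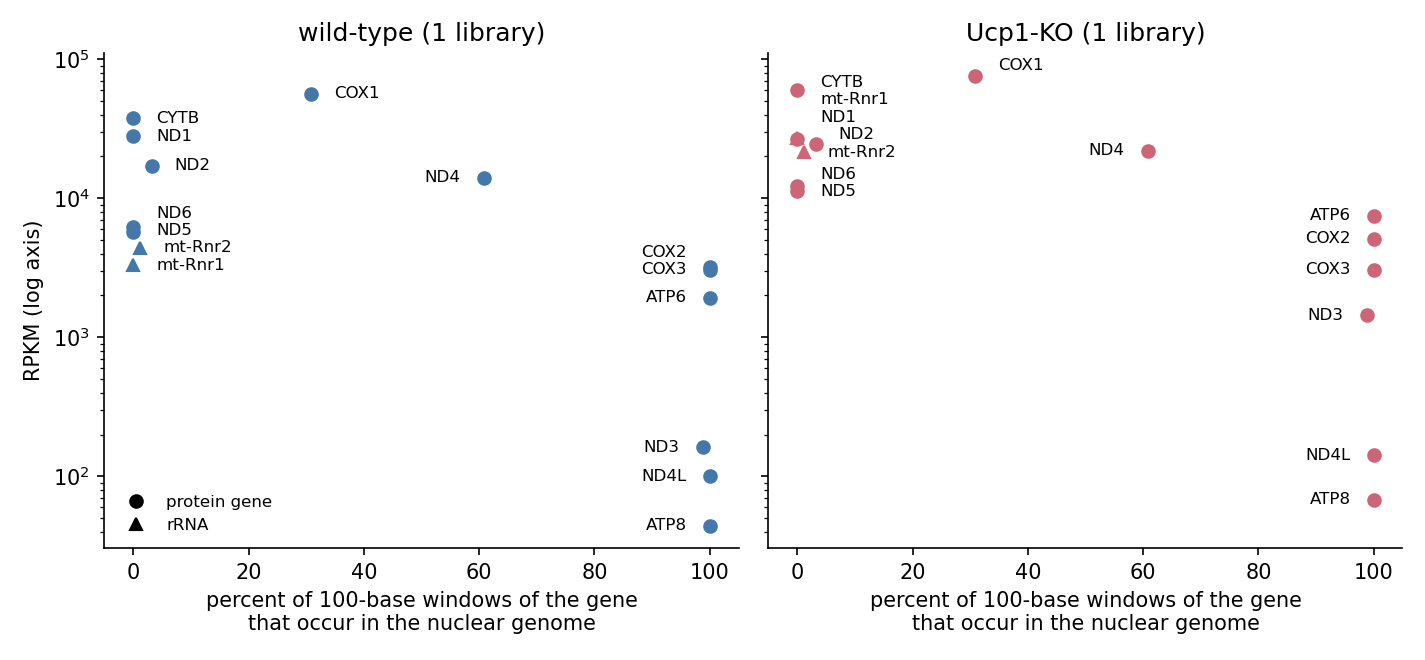
Points give the RPKM of each gene (y axis, log scale) against the percent of its 100-base windows that occur in the nuclear genome (x axis), with 1 panel for each of the 2 libraries. Genes at or near 100% reach at most 3191 RPKM in wild-type and 7513 RPKM in Ucp1-KO, and each protein gene at lower shares lies above them.

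By strand, 12 of the 13 protein genes and both rRNAs come from the heavy-strand transcript, and ND6 alone comes from the light-strand transcript. The median log2 ratio of the 12 heavy-strand genes was 0.94, and the 6 of them not wholly within the copy had one of 0.89, against 1.30 for ND6. ND6 was above each of those 6 genes, and its interval (1.29 to 1.32) did not overlap that of the nearest, ND5. Per base, ND6 stood at 0.165 of CYTB in wild-type and at 0.204 in Ucp1-KO, and relative to ND5, which it meets tail to tail, it stood at 1.08 and 1.10. The strand setting of the counts is not given in the sources used here, so that reads of the antisense strand within ND6 may be included. The ND6 mRNA also lacks a tail, so that strand and poly(A) enrichment cannot be told apart for it.

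Along the heavy strand, the 6 protein genes not wholly within the copy, of which COX1 and ND4 lie partly within it, tended to differ more the further they lay from the rRNA genes, where transcription begins. From ND1 the log2 ratio went to 0.82 in ND2, 0.74 in COX1, 0.96 in ND4, 1.27 in ND5 and 1.00 in CYTB (rho of 0.89 with position, across 6 genes that share a precursor). The order was not strict, since COX1 lay below ND2 and CYTB below ND5, each beyond counting error. The rRNA genes at the very start, with 3.35 and 2.60, did not follow it. The restriction to these 6 protein genes was chosen after seeing the data. The 6 genes wholly within the copy, which lie between COX1 and ND4, ran from 0.31 to 3.46 and were left out of the rho.

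The makeup of the mitochondrial mRNA pool was compared as each gene's share of the 13 protein genes, which is free of the scaling between libraries. COX1 held 40.9% of the pool in wild-type and 38.4% in Ucp1-KO. CYTB went from 20.0% to 22.6%, and ND4 from 9.03% to 9.88%. The share of ND2 was nearly the same, with 8.29% and 8.26%. ND1 had the largest decrease, from 12.5% (95% exact binomial interval 12.50% to 12.55%) to 8.38% (8.36% to 8.40%). ND5 went from 4.89% to 6.65%, ND6 from 1.5% to 2.09% and ATP6 from 0.616% to 1.67%. In all, 8 of the 13 genes had a larger share in Ucp1-KO, and 5 (ND1, COX3, COX1, ND4L and ND2) a smaller one. For ND2, ND4L and ATP8 the intervals of the shares overlapped between libraries, at 8.26% to 8.31% and 8.24% to 8.28% for ND2, at 0.0130% to 0.0150% and 0.0130% to 0.0146% for ND4L, and at 0.00370% to 0.00479% and 0.00405% to 0.00499% for ATP8.

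The nuclear genes that work with the mitochondrial ones were compared next. Of 75 nuclear subunits of complexes I, III, IV and V, 74 could be examined, and their median log2 ratio was -0.0045, with 37 above 0. At least 2-fold differences were found for 2 of them. Cox7a2 was higher, from 3 and 31 counts (log2 ratio 3.44, 1.34 to 7.57), but it passed the filter through Ucp1-KO alone. Cox6a2, the form of a complex IV subunit found in muscle and brown fat, was lower at -2.12 (-2.47 to -1.79). Atp5mc1, a subunit of the ATP synthase rotor ring, followed at -0.96. Muscle markers were lower in the same library, and the part of muscle content in these values was not tested. The nuclear and the mitochondrially encoded subunits of the same complexes thus had medians of -0.0045 and 0.96.

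Partners of the rRNAs and tRNAs gave similar values. The 77 mitochondrial ribosomal protein genes examined, of 78 listed, had a median log2 ratio of 0.0030, with 0 at least 2-fold different in either direction. Mrps15 (-0.64), Mrpl40 (-0.62) and Mrpl14 (0.55) were furthest from 0, beside the 2.60 and 3.35 of the rRNAs that these proteins bind. The 21 genes for charging mitochondrial tRNAs had a median of 0.15, with 1 at least 2-fold higher, Cars2 (1.16, 1.05 to 1.26), the cysteinyl-tRNA synthetase of mitochondria. Qrsl1 (0.65), which helps to make glutaminyl-tRNA, and Rars2 (0.53), the arginyl-tRNA synthetase, followed.

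The nuclear machinery that makes, cuts and degrades mitochondrial RNA comprised 31 genes. They had a median log2 ratio of 0.02, 18 were above 0 and 0 were at least 2-fold different. Trmt10c, a subunit of the enzyme that cuts the 5′ ends of mitochondrial tRNAs out of the precursor, was highest at 0.67 (0.54 to 0.79). Mterf2, a member of the mitochondrial transcription termination factor family, was at -0.58 (-0.78 to -0.38). Tfb1m, which methylates the small rRNA, was at -0.56 (-0.96 to -0.17). The 15 genes for replication and upkeep of mitochondrial DNA had a median of -0.08. Among them Primpol, a primase-polymerase, was at least 2-fold lower (-1.11, -1.58 to -0.66), Endog, a mitochondrial nuclease, was at 0.67 and Twnk, the replicative helicase, at -0.48. Against backgrounds of 7.42% higher and 9.55% lower among all genes, 4 of the 218 nuclear genes in these 5 lists passed 2-fold. Cox7a2, with 3 and 31 counts, was 1 of these 4.

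**Figure D5:**
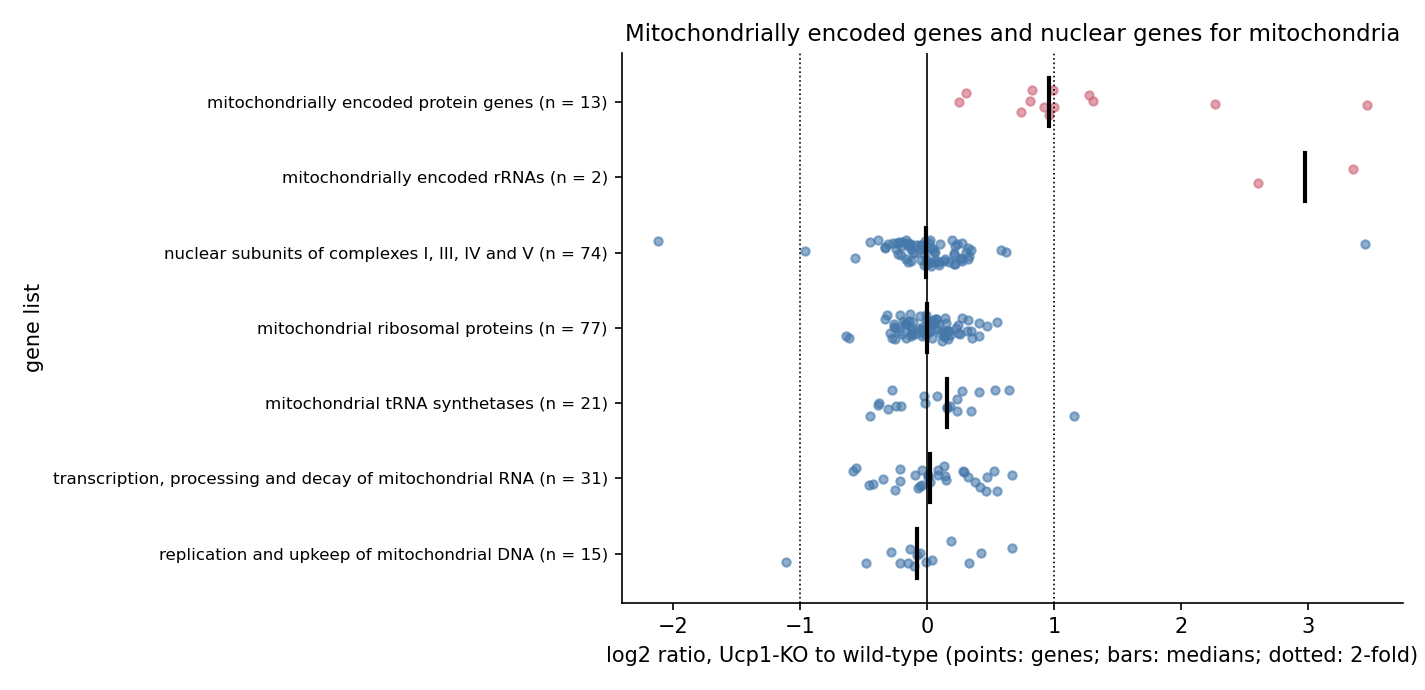
Points give the log2 ratio of Ucp1-KO to wild-type (x axis) for each gene of 7 lists (y axis), and black bars give the medians. The medians of the mitochondrially encoded protein genes (0.96) and rRNAs (2.98) lie to the right of those of the 5 nuclear lists, which run from -0.08 to 0.15.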

How the data were processed

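Interscapular brown adipose tissue of wild-type and Ucp1-KO mice gave 1 poly(A)-enriched, directional library per genotype. Per the labels, the authors trimmed reads with Trim Galore and aligned them to mm39 with HISAT2, and the deposited values are raw featureCounts counts per gene. For these tissue libraries, tool versions, read length, strand setting and treatment of multiply matching reads are not given in the sources used here. Of the counts from 1 to 10, 70.7% (wild-type) and 73.4% (Ucp1-KO) were even, so that read pairs were taken to add 2 counts, and intervals were computed on pairs.

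Size factors were computed with DESeq2 (version 1.42.0, R 4.3.3) and were 1.11 and 0.901. The log2 ratio used a pseudocount of 0.5, with exact conditional binomial 95% intervals. A gene was examined if its normalised counts averaged 10 or more, and a 2-fold size rule replaced a test. The mitochondrial chromosome was searched against the nuclear chromosomes of GRCm39 with blastn (version 2.17.0). Alternatives were TMM (edgeR 4.0.16), total counts, other pseudocounts and filters. All members are named. In each list of partner genes and of RNAs without a tail, the 3 genes furthest from 0 are named. Scripts were tested on simulated data. Members and lists were chosen with earlier results of these data known.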

Additional observations from a re-analysis of the deposited data

How the results depend on the processing

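No paired analysis was possible because the wild-type and the Ucp1-KO group hold 1 library each, so that none could be left out either. Alternatives for the tRNA genes gave no value, since none is listed. ND1 was the 1 member whose direction reversed, to -0.059 with total counts. With total counts the log2 ratio was -3.28 for Ucp1, and the medians were 0.65 for the 13 protein genes and for complex I, 2.67 for the rRNAs, 0.69 for complex III, 0.43 for complex IV, 1.29 for complex V and 0.63 for the heavy-strand protein genes. With TMM they were 0.95 for the 13 protein genes and for complex I, 2.97 for the rRNAs, 0.99 for complex III and 0.73 for complex IV. With total counts that left out the mitochondrially encoded genes they were 0.95, 2.96, 0.99 and 0.72 in the same order. From summed counts the log2 ratio was 0.83 for the protein genes and 2.88 for the rRNAs. Without the rRNAs, the share of the library was 21.4% in wild-type and 30.7% in Ucp1-KO. The number of members at least 2-fold higher was 6, and it was 4 with total counts and 4 at a log2 ratio of at least 1.5, and 0 were lower under any of these. Alternatives for single complexes and strands, the protein genes not wholly within the nuclear copy and windows of 150 bases were chosen after seeing the data. A count of 0 allows up to 6 counts in a library.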
